A study of Mus musculus with 16 samples.

Results

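The early growth response genes Egr1, Egr2 and Egr3 and the corepressor genes Nab1 and Nab2 were followed in mouse embryonic stem cells while the ERK pathway was switched on and then blocked. They were taken from the count table by gene symbol and are 5 of its 52636 genes. Egr proteins are zinc-finger transcription factors that bind GC-rich sites, and their genes belong to the immediate-early genes, which need no new protein to be transcribed. ERK switches them on largely through the ternary complex factors, ETS proteins such as Elk1 that ERK phosphorylates, on promoters held by serum response factor (Srf) at CArG boxes. NAB proteins bind a short inhibitory domain in Egr factors and bring in the NuRD chromatin complex, and NAB2 in particular is known as an Egr target, so that the pair is described as a brake on Egr activity.

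All 16 libraries came from the line CRAFR26, which carries a c-RAF kinase construct that 4-hydroxytamoxifen activates, and were made from total RNA after ribosomal RNA was depleted. The line is routinely kept in N2B27 medium with the GSK3 inhibitor Chir, the MEK inhibitor PD03 and LIF. In every group the cells had first spent 48 h with 250 nM of the FGF receptor inhibitor PD17 in the place of PD03. The 4 groups were uninduced cells (0h), cells given 250 nM 4-hydroxytamoxifen for 2 h (2h) or 4 h (4h), and cells given it for 4 h and then a MEK inhibitor for another 2 h (rev). Each group held 4 libraries, 2 from clone 4 and 2 from clone 8, so the replication rests on 2 clones of 1 line. The groups used here hold no cells given the vehicle of 4-hydroxytamoxifen and none at 6 h without the MEK inhibitor, so in rev the inhibitor and the later time cannot be told apart. No source says whether the 2 replicates of a clone were separate cultures, so p-values measure only the spread between these samples, which may be technical.

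Levels are given as CPM, counts scaled to a common library size corrected by TMM, a factor that corrects for the share of reads taken by a few very abundant genes. Total counts ranged from 2172651 to 12680303, and 3 counts, taken as the floor of detection, corresponded to 0.213 to 1.35 CPM. The 8 most abundant gene models held 42.0% to 80.4% of the counts. Rev clone 8 replicate 2 stood apart, with the highest share and the lowest TMM factor, 0.463, and for the tested members the changes fitted over both clones, the mean levels per length and the ratios in rev are also given without it. All 8 pluripotency markers examined were expressed (Pou5f1 at 126 and Nanog at 394 CPM in 0h), with a summed level of 1683 to 2084 CPM per library at 0h, 1713 to 2239 CPM at 2h, 1537 to 1974 CPM at 4h and 1718 to 2191 CPM in rev. They moved with the induction: 4 were called higher and 4 lower at 4h (Nanog at 250 CPM, -0.68), where 17.2% and 16.8% of all genes were. From 4h to rev 4 were called higher and 3 lower, where 7.93% and 8.43% of all genes were. The 5 primitive endoderm markers summed to 3.26 to 6.76 CPM per library over all groups, with Sox7 at 0 counts at 0h, and the 1 tested (Gata4) was not called. The 5 fibroblast markers summed to 2.44 to 3.85 CPM at 0h and 3.30 to 8.56 CPM in rev. Of the 2 tested, Col1a1 was called higher at 2h and in rev, but with 2 to 4 counts per library at 0h the size is not read. Col3a1 had 0 counts at 0h and 4h. Of 4 mesoderm markers, 2 of the 3 tested were called higher at 4h (T and Eomes; 17.2% of all genes were), with a summed level of 5.77 to 8.96 CPM per library at 0h, 16.3 to 25.5 CPM at 4h and 6.96 to 10.2 CPM in rev, and Mesp1 at 0 counts at 2h and in rev. The 3 neuroectoderm markers summed to 1.49 to 3.86 CPM at 0h, 4.21 to 4.67 CPM at 4h and 4.48 to 7.60 CPM in rev, with Pax6 called higher at 2h, 4h and in rev and Sox1 in rev, and Neurod1 at 0 counts at 4h. The 3 trophoblast markers summed to 32.0 to 49.8 CPM at 0h and 21.3 to 37.7 CPM at 4h. Cdx2 was called higher at 4h and in rev, but with 0 to 14 counts per library at 0h the size is not read. Tfap2c was called lower at 4h (-0.73). The part of these markers in the results was not tested. Changes are log2 fold changes with their SE from an edgeR quasi-likelihood model over 12215 genes, called at an adjusted p (Benjamini-Hochberg) under 0.05. In bulk RNA, more cells with a transcript and more transcript per cell cannot be told apart.

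Egr1 was the most abundant member per length in the induced groups. It rose 17.1-fold by 2h, was lower at 4h than at 2h, and after the MEK inhibitor lay below its level before induction. Egr3 and, at the limit of detection, Egr2 appeared from near 0 at 2h. Nab2 rose 6.96-fold by 2h and then held, Nab1 rose more slowly and was highest at 4h, and both were still well above 0h in rev. Egr1, Nab1 and Nab2 were called higher at 2h (Nab1 not with library size alone) and at 4h, where 11.4% and 17.2% of all genes were called higher and 9.68% and 16.8% lower. They were also called lower in rev than in 4h, where 8.43% of genes were called lower and 7.93% higher. The latter calls of Nab1 and Nab2 were lost without 4h clone 4 replicate 1 (-0.31 and -0.28) or rev clone 4 replicate 1 (-0.41 and -0.31), without the clone term, and with a covariate given below; that of Nab1 was also lost without 4h clone 8 replicate 1 (-0.36) or rev clone 8 replicate 1 (-0.28). Egr3 moved in the same directions, but it passed the filter on low counts only through the induced groups, where it is high. Its calls are therefore not read as support. Egr2 did not pass the filter.

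**Figure D1:**
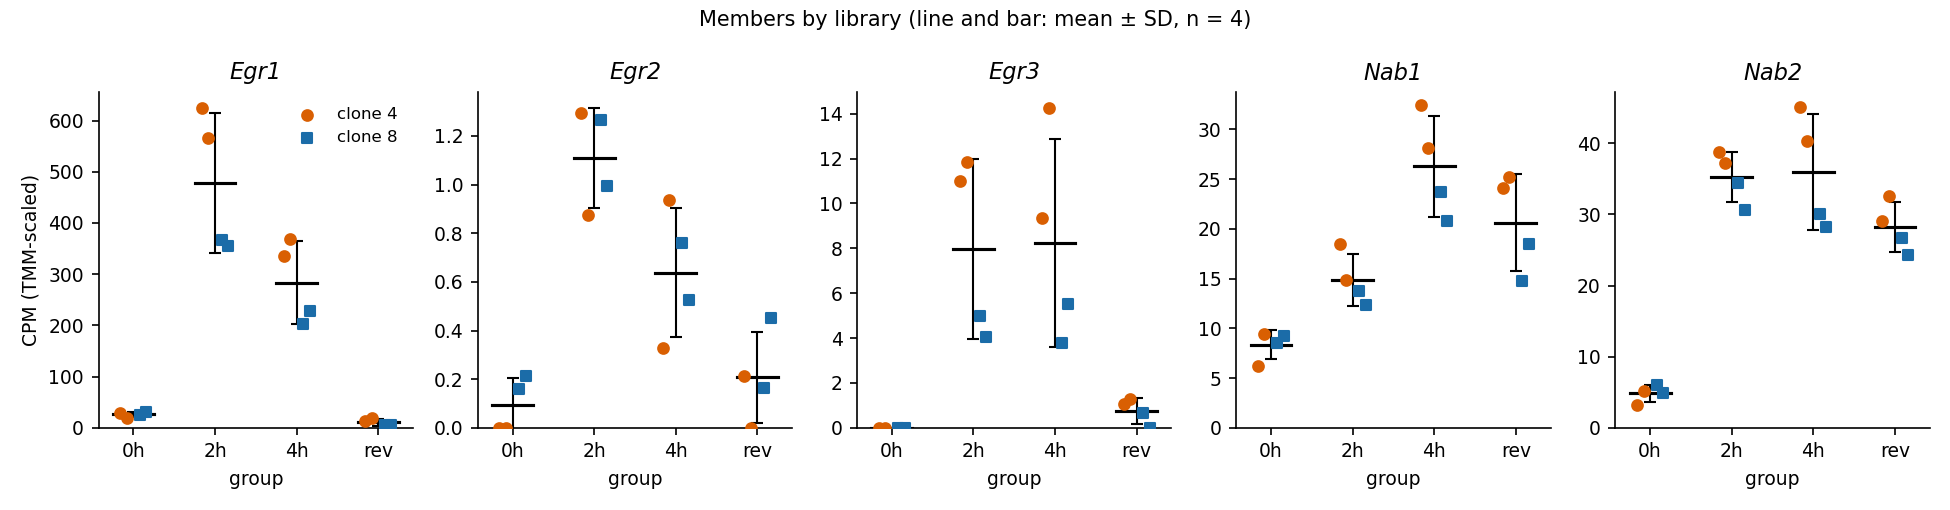
CPM of each member (y axis, TMM-scaled, own scale per gene) in each library by group, with circles for clone 4 and squares for clone 8. Lines and bars are the mean and SD of 4 libraries. Egr1 falls under its 0h mean of 26.3 CPM in rev, while Nab1 and Nab2 stay at 20.6 and 28.2 CPM.

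Egr1, the founding member of the family, has its gene on chromosome 18 from 34859823 to 34864984, plus strand (mm10, GENCODE M21). Before induction it was at 29.6 and 18.6 CPM in clone 4 and 25.7 and 31.1 CPM in clone 8, a mean of 26.3 ± 5.56 (SD, n = 4). At 2h it reached 625, 565, 366 and 355 CPM in the same order of clones, a mean of 478 ± 137. Every 2h library was thus far above every 0h library, and the 2 clone 4 libraries were above the 2 of clone 8. The change was 4.10 (SE 0.15, adjusted p 1.54e-20).

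At 4h Egr1 was at 336 and 368 CPM in clone 4 and 202 and 229 CPM in clone 8, a mean of 284 ± 80.7. Within each clone both libraries were below those of 2h, although clone 4 at 4h overlapped clone 8 at 2h. The step from 2h to 4h was -0.75 (SE 0.12, adjusted p 9.98e-05), in a comparison where 3.52% of genes were called lower and 3.8% higher. This call was lost without the clone term, with DESeq2 and with scaling by library size alone. Against 0h, Egr1 at 4h was 10.2-fold higher (3.35, SE 0.15, adjusted p 1.87e-18).

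In rev, Egr1 was at 13.1 and 18.7 CPM in clone 4 and 5.63 and 5.41 CPM in clone 8, from 123, 86, 34 and 12 counts. All 4 libraries were far below every 4h library, a 26.03-fold fall (-4.70, SE 0.18, adjusted p 1.67e-20). The rev level was also 2.56-fold below 0h (-1.36, SE 0.21, adjusted p 1.06e-05), in a comparison where 9.86% of genes were called lower and 12.4% higher. The groups overlapped in clone 4 only, where one rev library (18.7 CPM) matched the lower 0h library (18.6 CPM). Without rev clone 8 replicate 2 the changes were -4.64 against 4h and -1.30 against 0h, both still called.

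Egr3, which shares the zinc-finger domain and the binding site of Egr1, lies on chromosome 14 from 70077203 to 70082614, plus strand. It had 0 counts in all 4 of the 0h libraries. At 2h it was at 11.004 and 11.8 CPM in clone 4 and 4.98 and 4.05 CPM in clone 8, from 85, 27, 59 and 57 counts. At 4h the values were 9.35 and 14.3 CPM in clone 4 and 3.798 and 5.53 CPM in clone 8. Both induced groups thus lay wholly above the 0h floor. Set against a floor of 3 counts in each 0h library, the level was at least 15.4-fold higher by 2h and at least 15.9-fold higher by 4h. These bounds carry no test. No p-value against 0h is read for Egr3, which passed the filter on low counts only through the induced groups. Unlike Egr1, Egr3 had no called step between 2h and 4h (0.050, SE 0.18, adjusted p 0.919), with means of 7.96 ± 4.02 and 8.23 ± 4.64 CPM; the difference between the 2 genes in this step was not tested.

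In rev Egr3 fell to 10, 6, 4 and 0 counts, a mean of 0.758 ± 0.570 CPM, below every 4h library (-3.31, SE 0.29). No p-value is read for this fall, since Egr3 passed the filter only through the induced groups. Without rev clone 8 replicate 2, the library with 0 counts, the fall was -3.23. Against the 0h floor the rev mean of Egr3 was at least 1.47-fold higher, with 3 of the 4 rev libraries above 3 counts. This bound carries no test either.

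Egr2, best known as Krox20 for its role in hindbrain patterning and myelination, lies on chromosome 10 from 67535475 to 67542188, plus strand. It was barely detected, with 0, 0, 1 and 2 counts at 0h, and 10, 2, 15 and 14 counts at 2h. There were then 3, 8, 4 and 2 counts at 4h, and 2, 0, 1 and 1 in rev. The 2h libraries were at 0.876 to 1.29 CPM and those of 0h at 0 to 0.214 CPM, so the groups did not overlap, but 1 of the 2h libraries did not exceed 3 counts. Set against the 0h floor, the 2h mean of Egr2 was at least 2.15-fold higher and the 4h mean at least 1.23-fold higher, with 2 of the 4 libraries at 4h above 3 counts.

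With no filter on low counts, 31361 genes were tested, and Egr2 was called higher at 2h (3.14, SE 0.61, adjusted p 1.72e-05) and at 4h (2.35, SE 0.72, adjusted p 0.0131). In those fits 4.39% and 6.02% of genes were called higher; the fitted sizes depend on the prior count and bound nothing. From 4h to rev the estimate was -1.74 (SE 0.69, adjusted p 0.134), which was not detectable as a change at this depth.

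Egr4, the relative that lacks the NAB-binding domain, never had more than 4 counts in a library and was not tested. Of all counts on Egr1, Egr2, Egr3 and Egr4, the share of Egr1 was 99.1% ± 0.846 in the 0h group, 98.2% ± 0.324 in 2h, 97.0% ± 0.707 in 4h and 89.0% ± 3.404 in rev (SD, n = 4; 90.1% without rev clone 8 replicate 2). The more distant relative Wt1 had 0 to 4 counts per library at 0h, 3 to 31 at 4h and 6 to 14 in rev. Its 0h level was too low for the fitted size or a call against 0h to be read, so the counts alone are given.

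Nab2, the corepressor that is itself induced with Egr1 in many cells, lies on chromosome 10 from 127660918 to 127668568, minus strand. It was at 3.26 and 5.22 CPM in clone 4 and 5.95 and 4.92 CPM in clone 8 before induction. At 2h the values were 38.7, 37.2, 34.5 and 30.7 CPM and at 4h 45.1, 40.3, 30.001 and 28.2 CPM. Every induced library was above every 0h library, and the 2 induced groups overlapped. The change was 2.80 (SE 0.13, adjusted p 6.38e-18) at 2h and 2.83 (SE 0.13, adjusted p 4.81e-18) at 4h, with 0.028 (SE 0.096, adjusted p 0.914) between them.

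In rev Nab2 was at 29.1, 32.6, 26.7 and 24.3 CPM, above every 0h library and overlapping 4h. The change from 4h was -0.37 (SE 0.10, adjusted p 0.0114), and it no longer passed without 4h clone 4 replicate 1 (-0.28) or rev clone 4 replicate 1 (-0.31). The share of counts in the 8 most abundant models moved with this comparison, from 54.1% ± 9.31 in 4h to 65.9% ± 10.6 in rev, and with that share in the model the change was -0.27 (adjusted p 0.192). Without rev clone 8 replicate 2 it was -0.36 (adjusted p 0.0201). Against 0h Nab2 was 5.51-fold higher (2.46, SE 0.14, adjusted p 8.81e-15), and 2.46 without rev clone 8 replicate 2.

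Part of the Nab2 gene model, 1241 of its 2941 exonic bases, overlaps exons of Stat6, Nemp1 and Gm16229 on the other strand, and how the counting treated strand is not given in the sources used here. Reads from these genes and from Nab2 therefore cannot be told apart inside the overlap. Stat6, a cytokine-signalling factor, was at 15.0 CPM at 0h, 10.2 CPM at 2h (-0.50, SE 0.13, adjusted p 0.00546; 0.387 with library size alone and 0.0511 without the clone term) and 8.68 CPM at 4h, a fall of -0.78 (SE 0.14, adjusted p 6.32e-05; -0.67, adjusted p 0.0908, with library size alone). Nemp1, a nuclear envelope gene, was at 29.6, 24.6 and 26.8 CPM, with -0.25 at 2h (adjusted p 0.0474, lost under most alternatives) and no call at 4h (-0.12, SE 0.094). Gm16229 had at most 2 counts in a library. Stat6 thus fell at both times while Nab2 rose, and Nemp1 was not called higher at either.

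Nab1, the second corepressor, lies on chromosome 1 from 52457294 to 52500679, minus strand. It was at 6.25 and 9.40 CPM in clone 4 and 8.52 and 9.19 CPM in clone 8 at 0h. At 2h it was at 18.5, 14.9, 13.8 and 12.4 CPM, and at 4h at 32.4, 28.2, 23.7 and 20.8 CPM. The 3 groups did not overlap, so that Nab1, unlike Egr1, was higher at 4h than at 2h in all 4 libraries. The changes were 0.78 (SE 0.14, adjusted p 8.12e-05) from 0h to 2h and 0.80 (SE 0.12, adjusted p 1.56e-05) from 2h to 4h. With library size alone the first was 0.77 and did not pass (adjusted p 0.0783).

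In rev Nab1 was at 24.1, 25.2, 14.7 and 18.5 CPM, overlapping 4h and above every 0h library. The rev level was 2.31-fold above 0h (1.21, SE 0.14, adjusted p 1.07e-07; 1.19 without rev clone 8 replicate 2). The change from 4h was -0.37 (SE 0.12, adjusted p 0.0263) and weakly held: it was lost without 4h clone 4 replicate 1 (-0.31), 4h clone 8 replicate 1 (-0.36), rev clone 4 replicate 1 (-0.41) or rev clone 8 replicate 1 (-0.28). It was -0.38 (adjusted p 0.0309) without rev clone 8 replicate 2. With the share of the 8 abundant models in the fit it was -0.29 (adjusted p 0.223), and the part of that share in the result was not tested further.

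**Figure D2:**
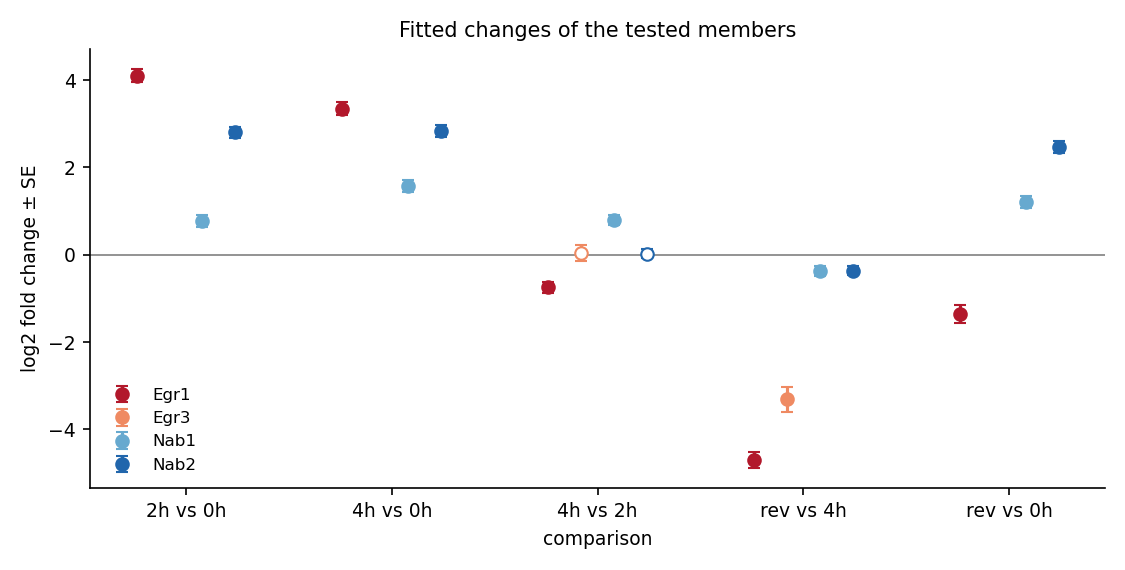
Fitted log2 fold change with its SE (y axis) of the tested members in the 5 comparisons (x axis), filled where called and open where not. Egr3 is drawn only for 4h vs 2h and rev vs 4h, because it had 0 counts at 0h. Egr1 shows -4.70 from 4h to rev, whereas Nab1 and Nab2 show -0.37 each.

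After the MEK inhibitor Egr1 and Egr3 and the corepressors thus stood at different fractions of their 4h level. Egr1 kept 4.52% of its 4h CPM in clone 4 and 2.56% in clone 8, and Egr3 kept 10.04% and 7.11%. Nab1 kept 81.3% and 74.6%, and Nab2 72.2% and 87.7%. Of the rise from 0h to 4h, 74.8% (clone 4) and 57.9% (clone 8) remained in rev for Nab1, and 69.2% and 84.9% for Nab2. Without rev clone 8 replicate 2, clone 8 kept 2.62% (Egr1), 14.2% (Egr3), 66.3% (Nab1) and 91.8% (Nab2) of its 4h level, and 44.0% (Nab1) and 89.9% (Nab2) of the rise. For Egr2 no fraction is read, with 17 counts over the 4h group and 4 over rev. These fractions come from 2 libraries per group and clone and are given without a test of the difference between the genes.

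Levels can be compared between genes only per length, as RPKM (CPM per kilobase of exon). At 0h Egr1 was at 5.86 RPKM, Nab1 at 2.03 and Nab2 at 1.64, and the SDs of Nab1 and Nab2 overlapped. At 2h Egr1 was at 107 RPKM and ranked 88 of 12207 tested genes with a length, from 3531 at 0h. Nab2 stood at 11.99 RPKM and rank 1702, from 8078, while Nab1 at 3.63 and Egr3 at 1.81 RPKM were in the middle of the list.

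The order was the same at 4h, with 63.3 RPKM for Egr1, 12.2 for Nab2, 6.41 for Nab1 and 1.87 for Egr3. In rev the order of factor and corepressors was turned over: Nab2 was highest at 9.58 RPKM, then Nab1 at 5.03, then Egr1 at 2.39 and Egr3 at 0.172. The order was the same without rev clone 8 replicate 2, at 10.01, 5.21, 2.78 and 0.229 RPKM, with Egr2 at 0.0372. The group means of Egr2, in the order 0h, 2h, 4h, rev, were 0.0276, 0.326, 0.188 and 0.0610 RPKM, the lowest member in all groups but 0h, where Egr3 had no counts.

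The ratio of Egr1 to Nab2 RPKM within each library put this in 1 value. It was 3.82 ± 1.62 at 0h (2.34 to 5.96), 8.78 ± 1.76 at 2h (6.97 to 10.6), 5.16 ± 0.671 at 4h (4.42 to 5.996) and 0.239 ± 0.117 in rev (0.139 to 0.376; SD, n = 4). The 2h ratios lay above all others, those of 0h and 4h overlapped, and all 4 rev ratios lay far below the rest, with a mean of 0.270 without rev clone 8 replicate 2. With Nab2 measured against only the 1700 exonic bases outside the overlaps, an alternative chosen after seeing the data that shifts all groups alike, the means were 2.21, 5.08, 2.98 and 0.138.

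Egr1 to Nab1 followed a like course, with 3.00 ± 1.04, 29.1 ± 4.66, 9.82 ± 1.72 and 0.448 ± 0.180. Between the corepressors, the Nab2 to Nab1 ratio was 0.805 ± 0.114 before induction, 3.34 ± 0.282 at 2h, 1.90 ± 0.0994 by 4h and 1.96 ± 0.379 in rev. Without rev clone 8 replicate 2 the rev means were 0.508 (Egr1 to Nab1) and 2.003 (Nab2 to Nab1). For Nab2 to Nab1 the 2h ratios did not overlap those of any other group: Nab2 was by then at its 4h level and Nab1 was not.

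**Figure D3:**
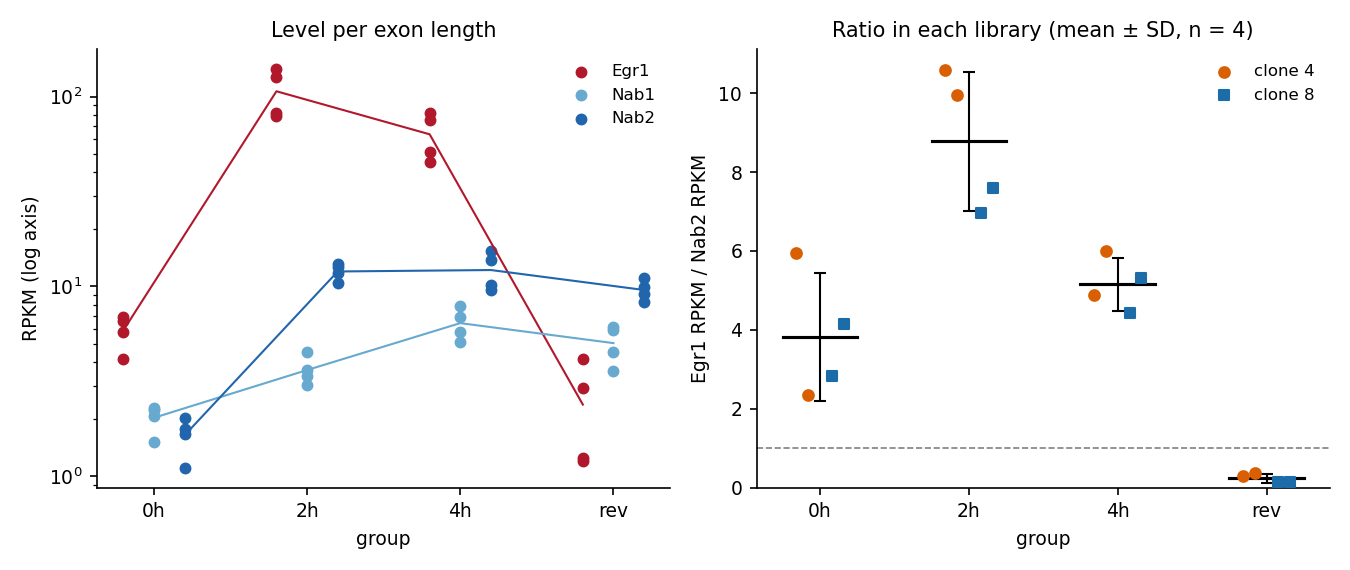
Left, RPKM (log axis) of Egr1, Nab1 and Nab2 in each library by group, with lines through the group means. Right, the ratio of Egr1 to Nab2 RPKM in each library (circles clone 4, squares clone 8) with mean and SD of 4, and a dashed line at equal levels. The ratio goes from 8.78 at 2h to 0.239 in rev.

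Egr1 moved in the same direction in both clones, by different amounts. From 0h to 2h Egr1 changed by 4.69 (SE 0.15) in clone 4 and 3.65 (SE 0.13) in clone 8, a difference of -1.04 (clone 8 minus clone 4; SE 0.20, adjusted p 0.0226). Only 0.0901% of genes were called for this difference. At 4h against 0h the difference was -1.03 (SE 0.20, adjusted p 0.00999), where 0.311% of genes were called.

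For rev against 0h Egr1 changed by -0.60 (SE 0.18) in clone 4 and -2.36 (SE 0.23) in clone 8. That difference was -1.76 (SE 0.31, adjusted p 0.00827), where 0.0573% of genes were called. Each of the 3 calls was lost when some single libraries were left out. Without 0h clone 4 replicate 2 the differences were -0.68, -0.67 and -1.40 for 2h, 4h and rev, and without 0h clone 8 replicate 2 the first 2 were -0.88 and -0.87. The 2h call was also lost with library size alone (-1.10) and without 2h clone 4 replicate 1 (-0.95) or 2h clone 8 replicate 2 (-1.0001), and the 4h call without 4h clone 8 replicate 1 (-0.93). The rev call was also lost without rev clone 4 replicate 2 (-1.54), rev clone 8 replicate 1 (-1.81) or rev clone 8 replicate 2 (-1.75).

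For the other 2 comparisons no member was called by edgeR. From 2h to 4h 0.0327% of all genes were called for a clone difference, and no tested member had an unadjusted p under 0.05; the Egr1 difference was 0.014 (SE 0.16). From 4h to rev 0.00819% of genes were called, and 1 member had an unadjusted p under 0.05, Egr1 with -0.74 (SE 0.29, adjusted p 0.808).

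The corepressors showed differences of the same sign that did not pass the test. Nab1 had -0.54 (SE 0.26, adjusted p 0.488) at 2h and -0.55 (SE 0.25, adjusted p 0.382) at 4h against 0h. Nab2 had -0.48 (SE 0.28, adjusted p 0.568) and -0.80 (SE 0.28, adjusted p 0.212). A clone difference for Egr3 against 0h could not be estimated, since both clones had 0 counts there.

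**Figure D4:**
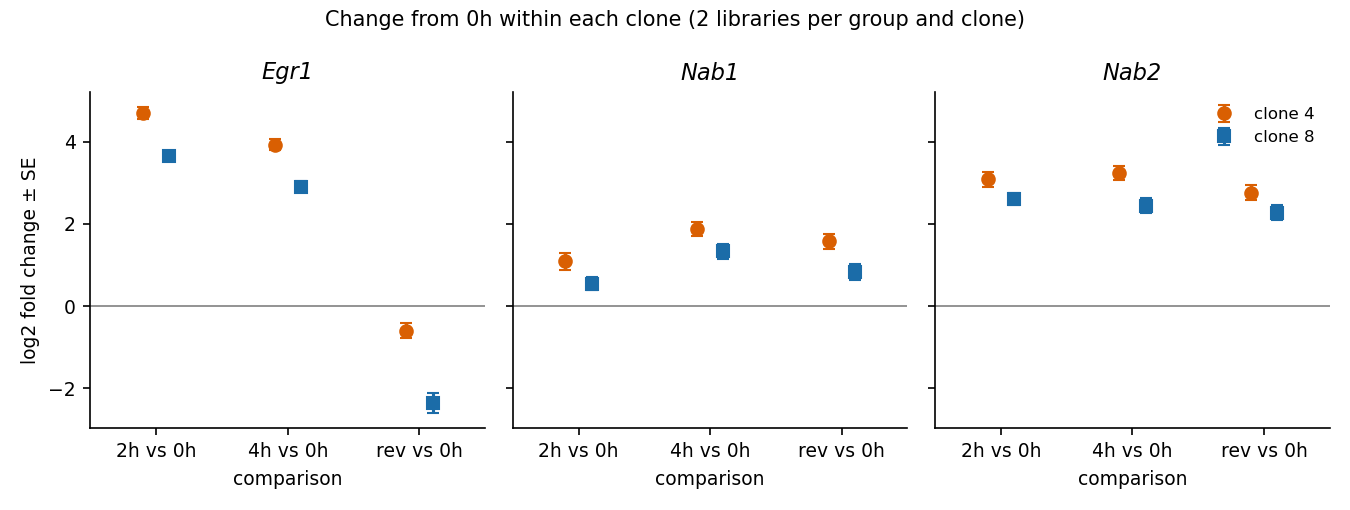
Log2 fold change from 0h with its SE (y axis) within clone 4 (circles) and clone 8 (squares) for Egr1, Nab1 and Nab2 at 2h, 4h and rev (x axis), from 2 libraries per group and clone. For rev, Egr1 is at -0.60 in clone 4 and -2.36 in clone 8.

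Set side by side within a group, a comparison added after seeing the data, the clones did not differ detectably before induction: Egr1 was 0.31 higher in clone 8 (SE 0.16, adjusted p 0.279). At 2h clone 8 was called lower for Egr1 (-0.72, SE 0.11, adjusted p 1.78e-05), where 4.55% of genes were, and not for Nab1 or Nab2. At 4h clone 8 was called lower for Egr1 (-0.71, adjusted p 3.21e-05), Nab1 (-0.44, adjusted p 0.0434) and Nab2 (-0.55, adjusted p 0.00250), where 5.21% of genes were. In rev clone 8 was called lower for Egr1 (-1.45, SE 0.26, adjusted p 2.49e-04) and Nab1 (-0.62, SE 0.17, adjusted p 0.0160), where 3.47% of genes were. Clone 8 in rev includes the library that stands apart and was not refitted without it. Egr3, which passed the filter only through the induced groups, is given without a call, at -1.32 (SE 0.25) at 2h and -1.37 at 4h. The 8 abundant models held 42.0% and 51.7% of the counts in clone 4 at 4h and 60.4% and 62.4% in clone 8. The part of that share was not tested, and these comparisons were run under no alternative. In these fits clone 8 was lower at 2h and 4h for Egr1 and Egr3 and at 4h for both corepressors.

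Promoter sequence was read for the 3 members with a window in the RefSeq table (GRCm38.p6), 250 bases before to 50 after a transcript start, 5′ to 3′ on the gene's strand. The other members had no window in it. Capitals mark matches to the CArG box or to the Egr site GCGNGGGCG; both strands were searched, and for the ETS site CCGGAAGT too, and no 2 matches overlapped.
Egr2, chr10:67537619-67537918, plus strand, of 5 windows listed the one at the principal transcript's start in GENCODE M21: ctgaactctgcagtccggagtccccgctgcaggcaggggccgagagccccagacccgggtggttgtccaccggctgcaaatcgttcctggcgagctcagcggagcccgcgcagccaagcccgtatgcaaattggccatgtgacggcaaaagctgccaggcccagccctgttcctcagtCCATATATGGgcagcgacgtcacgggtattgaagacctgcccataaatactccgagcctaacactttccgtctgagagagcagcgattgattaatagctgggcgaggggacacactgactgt
Nab1, chr1:52500399-52500698, minus strand: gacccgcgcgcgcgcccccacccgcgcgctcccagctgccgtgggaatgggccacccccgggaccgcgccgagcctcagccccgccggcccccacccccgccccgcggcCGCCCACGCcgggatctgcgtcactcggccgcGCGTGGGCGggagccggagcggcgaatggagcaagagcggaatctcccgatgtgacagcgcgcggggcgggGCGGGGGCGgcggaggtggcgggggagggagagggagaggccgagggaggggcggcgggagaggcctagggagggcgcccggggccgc
Nab2, chr10:127666654-127666953, minus strand: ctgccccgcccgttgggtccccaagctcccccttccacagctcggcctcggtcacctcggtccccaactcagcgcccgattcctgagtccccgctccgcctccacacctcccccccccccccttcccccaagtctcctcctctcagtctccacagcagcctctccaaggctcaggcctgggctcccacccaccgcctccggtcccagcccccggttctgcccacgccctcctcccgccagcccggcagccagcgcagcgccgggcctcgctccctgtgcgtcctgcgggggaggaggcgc

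The Egr2 window held 1 CArG box, CCATATATGG, from -72 to -63 relative to the start. Nab1 held 3 Egr sites: CGCCCACGC from -141 to -133 (a match on the other strand), GCGTGGGCG from -109 to -101 and GCGGGGGCG from -38 to -30. The Nab2 window held none of the 3 motifs, which says only that these letters are not in these 300 bases. This window lies wholly inside the Nab2 gene positions given above, which on the minus strand begin at 127668568. The bases before that end of the gene were not read. Of 32817 promoter windows of that length, counted without those of chromosome 18, 1.63% held a CArG box, 5.56% an Egr site and 3.89% the ETS site. These are matches of letters, and binding was not measured.

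Among the factors that act on Egr promoters, 9 listed genes were tested, and 3 rose from 0h to 4h while the other 6 did not pass the test (list median 0.053, all genes -0.017; 17.2% of all genes were called higher). Srf, the factor that holds CArG boxes, went from 21.7 to 42.3 CPM (0.97, SE 0.093, adjusted p 3.29e-10). It was at 39.9 CPM in rev (-0.10, SE 0.088, from 4h; -0.15 without rev clone 8 replicate 2), while Egr1 fell 26.03-fold. Erf, an ETS repressor that ERK moves out of the nucleus, rose from 47.5 to 99.6 CPM (1.09, SE 0.10, adjusted p 2.63e-10), and Elk4, a ternary complex factor, from 13.2 to 19.3 CPM (0.57, SE 0.11, adjusted p 1.14e-04; 0.67, adjusted p 0.0806, with library size alone).

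Among the NuRD subunits through which NAB proteins act, 13 of 13 were tested; 4 rose and 1 fell at 4h (list median 0.18), where 17.2% of all genes were called higher and 16.8% lower. The changes were small beside that of Nab2: Mta2 0.48 (SE 0.072, adjusted p 3.04e-06), Gatad2a 0.40 (SE 0.075, adjusted p 9.75e-05), Rbbp7 0.38 (SE 0.075, adjusted p 1.51e-04) and Mta1 -0.33 (SE 0.083, adjusted p 0.00254). With scaling by library size alone none of these 4 calls passed, at 0.58 (adjusted p 0.117), 0.50 (0.198), 0.49 (0.219) and -0.22 (0.651).

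Of 18 genes described as Egr1 targets in other cells, 15 were tested; 5 rose and 3 fell at 4h (list median 0.21), where 17.2% of all genes were called higher and 16.8% lower. From 4h to rev 4 fell and 2 rose, where 8.43% and 7.93% of all genes did. Of those that fell, Pdgfa no longer passed without rev clone 8 replicate 2 (-0.21). Id3, an inhibitor of basic helix-loop-helix factors, moved like Egr1, with 3.41, 29.8, 27.6 and 2.57 CPM in 0h, 2h, 4h and rev (2.85, SE 0.19, at 4h; -3.54, SE 0.22, from 4h to rev; -3.62 without rev clone 8 replicate 2). The growth factor genes Tgfb1 and Pdgfa were, like Nab1, highest at 4h. Tgfb1 was at 2.66, 5.48, 11.1 and 7.42 CPM, and Pdgfa at 34.2, 57.1, 73.2 and 61.6 CPM. Vegfa went the other way, from 47.0 to 24.3 CPM at 4h (-0.93, SE 0.094, adjusted p 1.34e-09) and to 39.3 CPM in rev (0.69 from 4h; 0.73 without rev clone 8 replicate 2, and uncalled at 0.28 with library size alone).

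**Figure D5:**
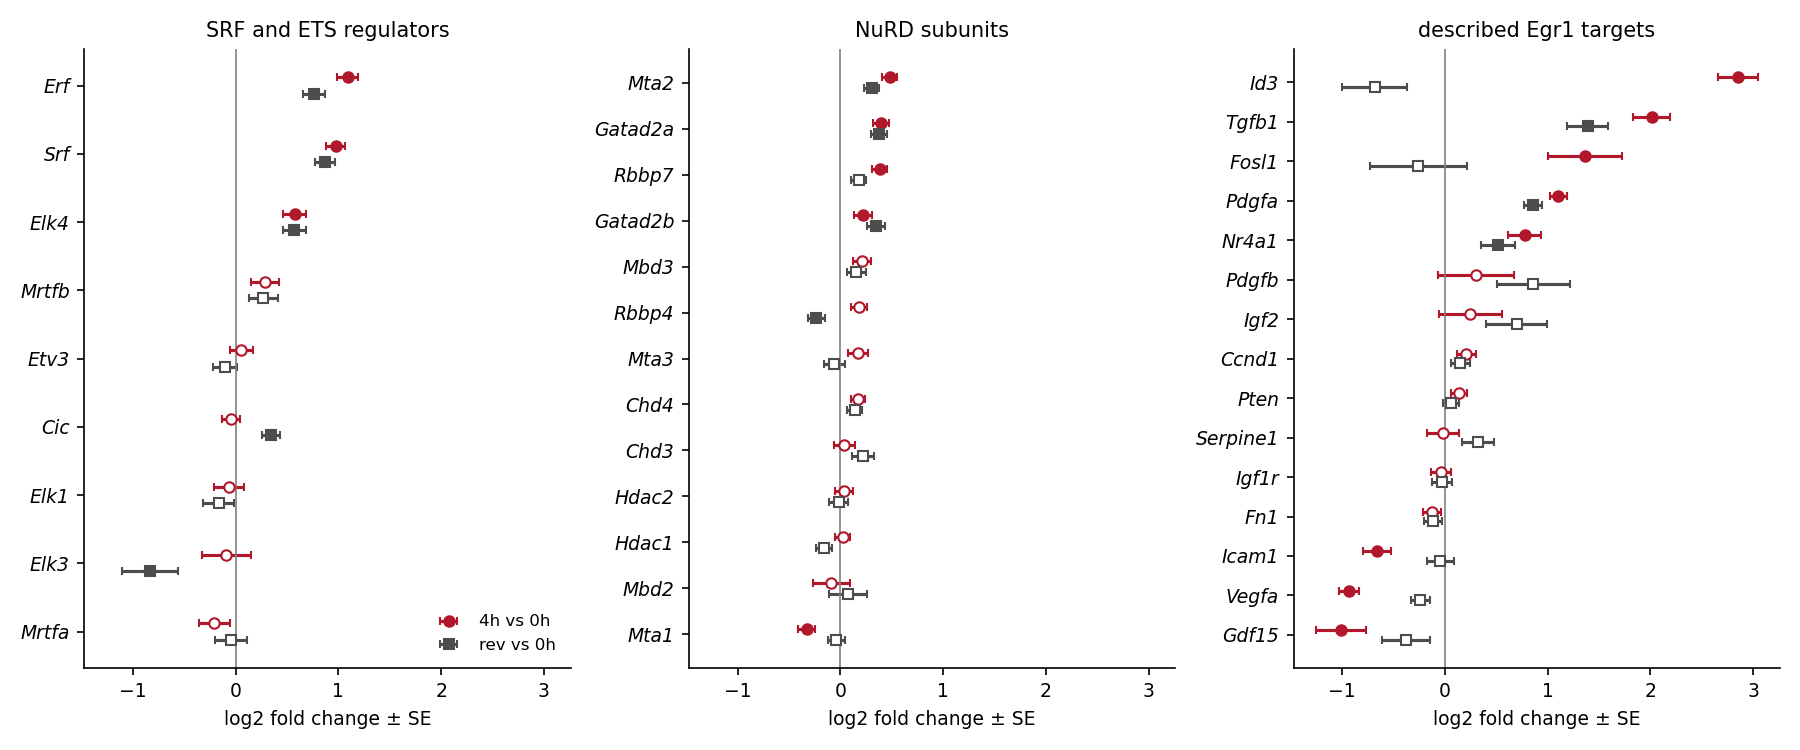
Log2 fold change with its SE (x axis) of the tested genes of 3 lists (y axis) at 4h against 0h (circles) and rev against 0h (squares), filled where called. At 4h against 0h, Erf (1.09) and Srf (0.97) lead the regulators, Mta2 (0.48) the NuRD subunits and Id3 (2.85) the described targets.

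By the likeness of their course over the 16 libraries (root mean square distance of mean-centred log2 CPM, among 8645 or 8646 genes of at least 5 CPM on average), the nearest genes to Egr1 were Dusp6 (0.937), Id3 (1.11), Myc (1.17), Phlda1 (1.19) and Tiparp (1.29), against a median gene at 2.37. Nearest to Egr3 were Phlda1 (0.757), Myc (0.932), Slc39a14 (0.975), Dusp6 (1.03) and Plaur (1.04). Egr1 and Egr3 thus shared Dusp6, Myc and Phlda1 and were 1.22 from each other.

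The corepressors had other neighbours. For Nab2 they were Baiap2 (0.481), Zyx (0.516), Cavin1 (0.525), Etv4 (0.536) and Efr3b (0.550), and for Nab1 Nr6a1 (0.223), Plec (0.229), Aebp1 (0.241), Ptpn12 (0.260) and Mest (0.270). The median gene lay at 1.21 from Nab2 and 0.683 from Nab1. Nab1 and Nab2 were 0.732 apart, farther than the median gene from Nab1 and nearer than the median gene to Nab2, and Egr1 was 2.08 from Nab2 and 2.27 from Nab1. These distances grow with the size of a gene's changes and share the same libraries, so they describe and do not test.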

How the data were processed

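RNA-seq read counts per gene for 16 libraries were used as deposited by the authors: whole numbers, not normalized. Reads were demultiplexed with bcl2fastq 2.19.1 and aligned with STAR 2.5.3a to mm10, per the submitters' processing notes; the counting tool, annotation and strand setting are not given in the sources used here. Symbols, positions and exon lengths came from GENCODE M21, which matched 52489 of 52636 identifiers. Members and gene lists were chosen with earlier results of these data known, and the members were named whatever their values; list examples were those with the smallest adjusted p at 4h, and further ones were chosen after their values were seen. Sample titles gave the group, the clone and the replicate number.

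In R 4.3.3, edgeR 4.0.16 was run with filterByExpr (12215 genes), TMM factors (0.463 to 1.47) and a quasi-likelihood model of group and clone over all 16 libraries, with two-sided contrasts and Benjamini-Hochberg adjustment at 0.05. A model of 8 group and clone cells gave differences between clones. A fold against a group at or under 3 counts was taken against that floor in each library, and covers counting error only. RPKM used TMM-scaled sizes. The pipeline was tested on simulated data. Alternatives were RLE factors, library size alone, no filter, a mean of at least 1 CPM, no clone term, a replicate block, only the groups compared, DESeq2 1.42.0, the 8 most abundant models removed or their share as a covariate, and each library left out.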

Additional observations from a re-analysis of the deposited data

Results flagged for a closer look

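The response of Egr1 differed between the clones by a test of the difference itself (edgeR, clone 8 minus clone 4): against 0h it was -1.04 for 2h, -1.03 for 4h and -1.76 for rev. Each of these calls was lost when some single libraries were left out, as given above. Id3 also differed by this test, by -2.08 at 2h (4.45 in clone 4, 2.38 in clone 8, adjusted p 0.0179) and -2.01 at 4h against 0h (4.31 and 2.30, adjusted p 0.00636). The Id3 libraries of clone 4 had 0.815 and 1.64 CPM at 0h and those of clone 8 had 4.66 and 6.52, whereas at 2h all 4 lay between 28.9 and 30.5 CPM. The 0.815 CPM of 0h clone 4 replicate 1 was 3 counts, the floor of detection. The Id3 differences were not refitted under any alternative or with a library left out.

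Single libraries stood apart from the other 3 of their group in 3 of 96 groups of 4 examined, where chance gives about 1 in 20. The Nab2 to Nab1 ratio at 2h was 2.91 in clone 4 replicate 1 and 3.46 to 3.49 in the others. Erf in rev was at 101.4 CPM in clone 8 replicate 2 and 72.1 to 74.9 CPM in the others. Mta2 at 2h was at 126.4 CPM in clone 8 replicate 2 and 114 to 115 CPM in the others.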

How the results depend on the processing

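Over 519 alternative values for the members in the 5 group comparisons, 499 kept direction and call, 14 lost the call and 6 changed sign, the last all uncalled values of Egr3 and Nab2 for 4h against 2h. With library size alone, which shifted the median of all genes from that under TMM by -0.42 (rev against 4h), -0.31 (rev against 0h), 0.11 (4h against 0h) and 0.10 (4h against 2h), the called genes (higher and lower) were 204 and 134 at 2h against 0h, 554 and 327 at 4h against 0h, 88 and 12 at 4h against 2h, and 57 and 1671 at rev against 4h; for rev against 0h 105 were higher. Nab1 at 2h was then 0.77 (adjusted p 0.0783), Egr1 from 2h to 4h -0.63, and the Egr1 clone difference at 2h -1.10; these 3 no longer passed. Without the clone term the counts were 747 and 462, 1323 lower at 4h against 0h, 129 and 90 at 4h against 2h, 418 and 463 at rev against 4h, and 876 and 576 at rev against 0h; Egr1 from 2h to 4h was -0.74, and Nab1 and Nab2 from 4h to rev were -0.36 each. DESeq2 gave -0.75 (adjusted p 0.0645) for Egr1 from 2h to 4h. When the percentage of counts in the 8 abundant models entered as a covariate, 577 genes were higher and 652 lower in rev against 4h, Nab1 was -0.29 and Nab2 -0.27, and Nab2 from 2h to 4h was -0.016; with no filter it was -0.00107. The members called were 1 at 4h against 2h under DESeq2, library size alone or no clone term, and 2 at rev against 4h with no clone term or the covariate. The causes were not tested.

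No label says that same-numbered libraries were handled together. Their residuals correlated at 0.0132 on average over 12 pairs of groups (-0.318 to 0.210), over 0.1 in clone 8 among 0h, 2h and 4h (0.130 to 0.210) and in clone 4 for 0h with 2h (0.103), and below -0.1 in clone 4 for 0h with 4h or rev and 2h with 4h, so the number was not used to pair them. With the replicate block Egr3 from 2h to 4h was -0.013 and its clone difference there 0.042, and no member's call changed. The clone difference of Egr1 from 2h to 4h was -0.50 with library size alone and -0.086 with no filter.

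Leaving out single libraries gave 743 (without 0h clone 8 replicate 2) to 1286 genes lower at 2h against 0h, 303 (without 2h clone 4 replicate 1; 306 without 4h clone 4 replicate 2) to 510 higher and 260 (without 4h clone 4 replicate 1; 261, 278 and 274 without 2h clone 4 replicate 1, 4h clone 4 replicate 2 and 4h clone 8 replicate 1) to 457 lower at 4h against 2h, and 644 (without 4h clone 4 replicate 1) to 1026 higher in rev against 4h. The members ranged from -0.14 to 0.21 (Egr3) and -0.050 to 0.085 (Nab2) for 4h against 2h, and -0.42 to -0.28 (both Nab1 and Nab2) for rev against 4h, with 2 to 4 members called. Egr1 clone differences were -1.34 to -0.68 at 2h, -1.33 to -0.67 at 4h and -2.07 to -1.40 in rev, against 0h. From 2h to 4h clone differences were -0.076 to 0.10 (Egr1), -0.33 to 0.28 (Egr3) and -0.25 to 0.087 (Nab1), and from 4h to rev -4.65 to 0.60 (Egr3, with 1 clone 8 library of 0 counts left at the extreme) and -0.30 to 0.026 (Nab1). The Egr1 to Nab2 ratio with the shorter Nab2 length was 5.08 at 2h and 2.98 at 4h. Egr2 had at most 15 counts in a library, and in rev Egr1 had 12 to 123 and Egr3 0 to 10, which limits the precision of these values.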
